A study of Cucumis sativus with 12 samples.

Results

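The genes described here peaked in cucumber (Cucumis sativus) leaves after 12 h in the cold and were lower both before and after it. They are the 150 genes with the highest score among 12396 genes that reached a mean of at least 5 FPKM (fragments per kilobase of transcript, scaled to the mapped fragments of each library) at 1 time or more, out of 24317 genes measured. The score was log2(mean FPKM + 0.5) at 12 h minus the largest of the same values at 0, 3 and 24 h. The rule therefore used all 4 levels of a gene, and the height at 12 h is given below as a description, without a test. The sampled tissue was the leaf of seedlings with 3 true leaves, with 3 libraries at each time. At 0 h the plants had not been chilled. At 3, 12 and 24 h they had spent that time at 15 °C by day and 6 °C by night, with 12 h of each, after a warmer regime with a longer day. Hours in the cold, the phase of day and night and the shorter day change together in these samples and cannot be told apart at 3 h or 12 h. The 0 h and 24 h samples were a whole day apart. Between them, hours in the cold and the shorter day cannot be told apart. In whole leaves, fewer cells of a type and less RNA per cell cannot be told apart either.

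Leaves capture light with chlorophyll a-b binding proteins, which form the antennae of both photosystems and pass the energy to the reaction centres. The genes of these antennae respond to light and to the circadian clock in many plants, and antenna size is adjusted when cold slows the use of the captured energy. Chilled leaves also commonly make phenylpropanoids, such as lignin precursors, flavonoids and anthocyanins, which are modified by sugar and malonyl groups before storage in the vacuole. Genes of both kinds stood among the members.

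By their deposited descriptions, the members comprised 12 antenna protein genes, 11 genes of phenylpropanoid and flavonoid metabolism, 12 transcription and light regulators, and 14 hormone genes. A further 10 encoded transporters, 2 belonged to the raffinose pathway, and 24 encoded other enzymes. Cell wall and cell surface proteins made up 14, RNA and protein handling 13, and other described proteins 9. The remaining 29 had no described function. These roles were assigned after the values were seen.

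The median over members was 4.59 FPKM at 0 h, 6.13 at 3 h, 29.4 at 12 h, then 9.93 at 24 h. The mean at 12 h ranged from 5.04 to 6516 FPKM, with 13 members at 1000 FPKM or more and 25 under 10. It was 1.92 to 8.53 times the next highest time (median 2.47). The next highest time was 24 h for 89 members, 3 h for 41 and 0 h for 20. All members together took 1.10% to 1.20% of the summed FPKM of a library at 0 h, 2.05% to 2.27% at 3 h, 6.69% to 8.12% at 12 h, then 2.47% to 3.75% at 24 h. In 149 of the 150 members (99.3%) all 3 libraries at 12 h lay above the other 9, which held for 7.92% of the 17497 genes tested. The rule uses this contrast, so nothing is read from that count. The exception was CsaV3_7G021360, a chloroplast dnaJ 11 co-chaperone, with 4.70, 6.42 and 6.05 FPKM at 0 h, 5.43, 6.69 and 5.13 at 3 h, 20.9, 6.24 and 14.9 at 12 h, then 4.11, 4.78 and 5.10 at 24 h. A single low library at 12 h made it overlap.

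**Figure D1:**
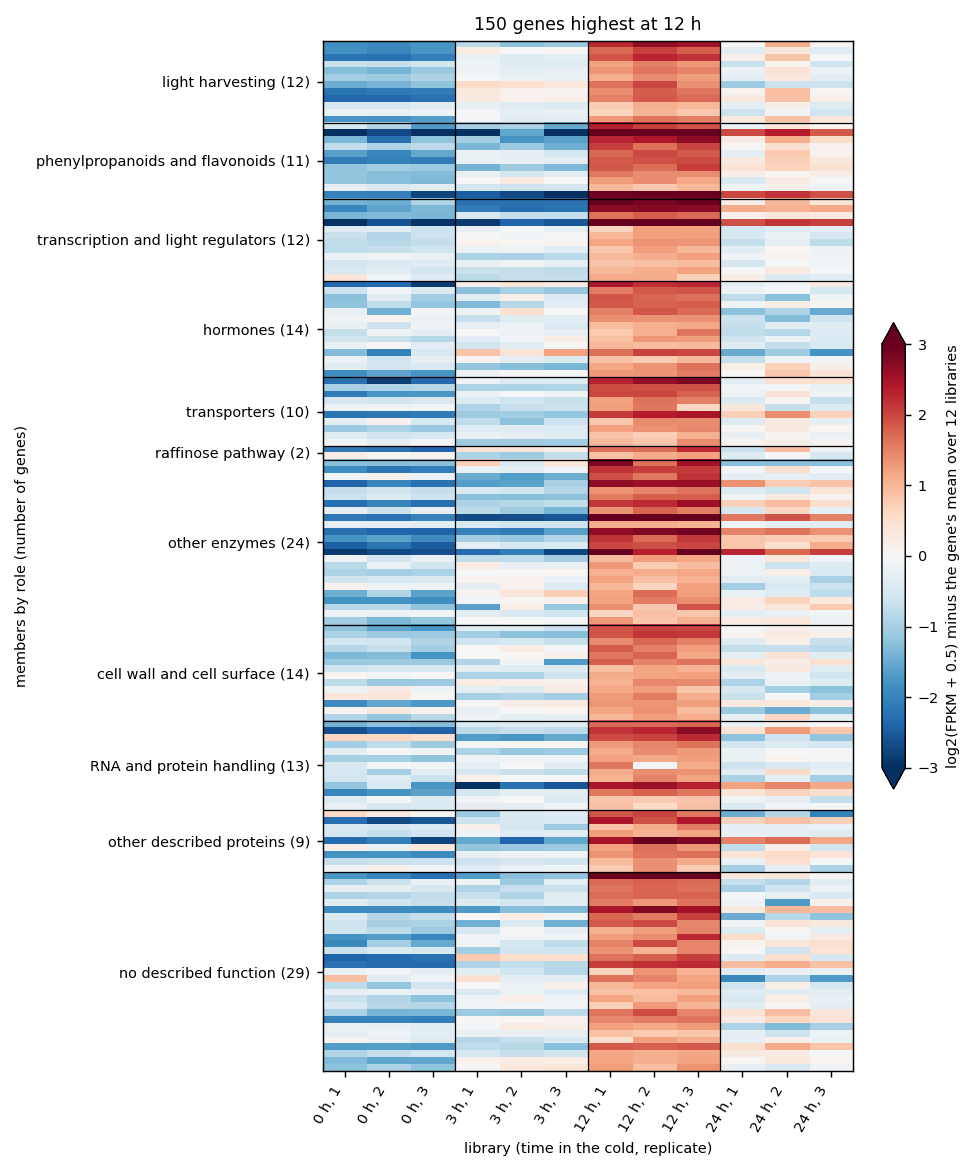
Heat map of the 150 members (rows, grouped by role with the number of genes) in the 12 libraries (columns, by hours in the cold and replicate). Colour gives log2(FPKM + 0.5) minus the gene's mean over the 12 libraries; 149 members had all 12 h libraries above the other 9, and the 24 h columns lie between those of 12 h and 0 h for many rows.

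At the edge of the selection the scores were close together. The last genes inside were a probable galactinol-sucrose galactosyltransferase 1 (0.94), phenolic glucoside malonyltransferase 2-like (0.94) and UDP-glycosyltransferase 87A1-like (0.94). The first outside were ethylene-responsive factor CRF4, the aspartic proteinase PCS1 and a dynein light chain, each at 0.93. Beyond the selection, 2044 of the 12396 eligible genes (16.5%) had a score above 0. Among all genes, 132 had a score of at least 1 and 9 at least 2.

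The libraries were comparable in total FPKM (561513 to 586297). Depth relative to the first 0 h library, read from the commonest ratio of values under 0.1 FPKM, was 0.912 to 1.28. The median tested gene was 0.23 lower at 12 h than at 0 h on the log2(FPKM + 0.5) scale. The second 24 h library stood apart from the others at 24 h: members took 3.75% of its FPKM, against 2.53% and 2.47% in the others. Summed FPKM of 17 phloem genes, none a member, was 229 to 242 at 0 h, 127 to 138 at 3 h, 128 to 146 at 12 h, then 154 to 185 at 24 h. The 112 epidermis and cuticle genes (1 member) summed to 730 to 743 at 0 h, 897 to 946 at 3 h, 507 to 585 at 12 h, then 511 to 560 at 24 h. The 29 genes of xylem and lignified cells (1 member) summed to 70.6 to 90.05 over all libraries. The part of cell type proportions in the results was not tested.

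The antenna members had the highest median level of any role at 12 h (2174 FPKM), although CsaV3_1G005600 among them was at 27.6 FPKM. Of the 20 antenna protein genes in the annotation, 12 (60%) were members, beside 1.21% of all eligible genes. They took 0.764% to 0.845% of the summed FPKM at 0 h, 1.59% to 1.80% at 3 h, 4.76% to 6.01% at 12 h, then 1.74% to 2.76% at 24 h. They included genes for the major trimeric antenna of photosystem II (LHCII), for its minor antennae CP24, CP26 and CP29, and for the photosystem I antenna.

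CsaV3_6G051530, of LHCII type I, had the highest level of any member at 12 h, with 326, 315 and 359.7 FPKM at 0 h, 1294, 1152 and 1199.8 at 3 h, 5540.4, 7294 and 6713 at 12 h, then 1662, 2655 and 1507 at 24 h. Its neighbour CsaV3_6G051520, also LHCII type I, had 255, 258 and 279 FPKM at 0 h, 1599, 1435 and 1465 at 3 h, 3746, 4716 and 4279 at 12 h, then 1599.8, 2414 and 1492 at 24 h. In both genes the 4 times did not overlap except for 3 h and 24 h in CsaV3_6G051520. CsaV3_1G032510, an LHCII type 1-like gene, started lower, with 105, 101 and 113 FPKM at 0 h, 218, 162 and 177 at 3 h, 1814, 2418 and 2169.9 at 12 h, then 380.2, 797 and 404 at 24 h. It had the highest score of the antenna genes, its mean at 12 h being 4.05 times the next highest. Another LHCII gene, CsaV3_3G031580, had the lowest score of the antenna members (0.94), with 433 ± 19.5 FPKM at 0 h, 1229 ± 137 at 3 h, 3988 ± 475 at 12 h, then 2081 ± 504 at 24 h (SD, n = 3 each). Its 24 h libraries kept the largest part of the 12 h level among the antenna members (52.2%), which goes with its low score. Antenna protein 13, described for tomato as LHCII type III, had 107, 111 and 114 FPKM at 0 h, 600.3, 529.9 and 528 at 3 h, 1283, 1709.8 and 1487 at 12 h, then 527, 904.8 and 502 at 24 h. Its libraries separated completely between 0 h and every later time.

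The photosystem I antenna genes varied more in their level before the cold. Antenna protein 6A (CsaV3_5G025740) had 106, 96.5 and 112 FPKM at 0 h, 435, 375 and 379.5 at 3 h, 1231, 1555 and 1306 at 12 h, then 297, 469.5 and 298 at 24 h. Antenna protein 7 (CsaV3_5G030270) had 330.2 ± 32.5 FPKM at 0 h, 680.3 ± 29.09 at 3 h, 2215 ± 215 at 12 h, then 821 ± 205 at 24 h. Antenna protein P4 (CsaV3_1G002410) was already at 425 ± 13.7 FPKM at 0 h, 550.2 ± 56.0 at 3 h, 1711 ± 195.3 at 12 h, then 530.3 ± 169 at 24 h. A second P4-like gene, CsaV3_1G005600, was much lower, with 2.62, 2.82 and 3.29 FPKM at 0 h, 12.4, 11.5 and 10.6 at 3 h, 26.5, 34.3 and 22.1 at 12 h, then 3.67, 5.06 and 5.01 at 24 h. It was the antenna gene with the least left at 24 h (16.6% of the 12 h mean).

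Of the minor antennae of photosystem II, CP26 (CsaV3_5G039350) had 884 ± 40.7 FPKM at 0 h, 1595 ± 101 at 3 h, 4255 ± 481 at 12 h, then 1683 ± 455 at 24 h. CP29.1 (CsaV3_4G026100) had 947 ± 59.0 FPKM at 0 h, 1040.0 ± 58.6 at 3 h, 2498 ± 266 at 12 h, then 1187 ± 252 at 24 h, and CP24 10A (CsaV3_6G005340) had 560.3 ± 11.4 FPKM at 0 h, 567 ± 48.8 at 3 h, 1158 ± 143 at 12 h, then 473 ± 97.7 at 24 h (SD, n = 3 each). In CP24 10A only 12 h lay clear of the other times.

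**Figure D2:**
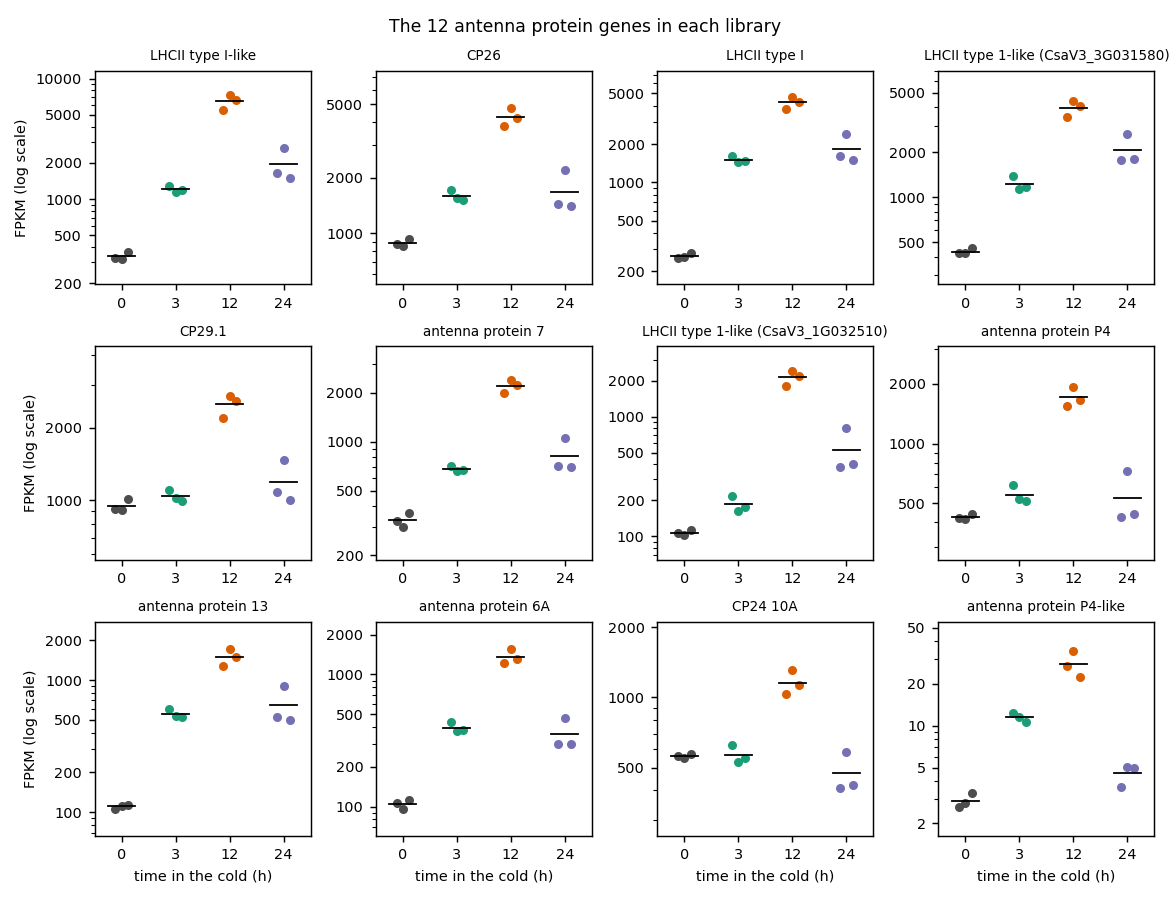
FPKM (log scale, a separate range in each panel) of the 12 antenna protein members in each of the 12 libraries against hours in the cold; dots are libraries and bars the means of 3. In every panel the 3 libraries at 12 h are the highest, and the second 24 h library is above the other 24 h libraries.

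Apart from the height at 12 h, the design allows 24 h and 3 h to be compared with 0 h. The score limits these levels from above and does not fix their order, but it used their means, so the members' counts are descriptions beside the share of all genes. limma was fitted to log2(FPKM + 0.5) of all 17497 tested genes, with Benjamini-Hochberg adjustment over all of them. A gene was called where the adjusted p was under 0.05 and its log2 fold change lay beyond 1 in either direction. At 24 h against 0 h, 13.2% of all tested genes were called higher and 18.1% lower. At 3 h against 0 h, 9.89% were called higher and 5.39% lower. Of the 12 antenna members, 7 were higher at 24 h and none lower, and 7 were higher at 3 h and none lower. Their median log2 fold change was 1.51 at 24 h and 1.27 at 3 h.

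At 24 h against 0 h the largest antenna change was that of LHCII type I CsaV3_6G051520 (log2 fold change 2.76 ± 0.15, adjusted p = 8.29e-09; ± is the SE throughout for fold changes). CsaV3_6G051530 (2.496), antenna protein 13 (2.48), CsaV3_3G031580 (2.24), CsaV3_1G032510 (2.22), antenna protein 6A (1.72) and antenna protein 7 (1.29) rose as well. The same 7 were called without the second 24 h library, at 1.09 to 2.55. All LHCII members thus stayed above the unchilled level a day later. CP26 (log2 fold change 0.90 ± 0.15, adjusted p = 0.000153), CP29.1 (0.31), CP24 10A (-0.26) and both P4 genes (0.27 and 0.57) were not called. Without the third 24 h library CP26 was at 1.01 and called, and with median-ratio rescaling at 1.10.

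At 3 h against 0 h, CsaV3_6G051520 had again the largest change of the antenna members (log2 fold change 2.501 ± 0.15, adjusted p = 8.16e-08), followed by antenna protein 13 (2.31), antenna protein 6A (1.92) and CsaV3_6G051530 (1.86). P4-like CsaV3_1G005600 was higher at 3 h (log2 fold change 1.82 ± 0.16, adjusted p = 1.32e-06) and was not called at 24 h. Antenna protein 7 was called at 3 h (1.05), and without the second 0 h library it was at 0.98, under the threshold. CsaV3_1G032510 was higher at 24 h and not called at 3 h (log2 fold change 0.79 ± 0.23, adjusted p = 0.0125).

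The 8 other antenna genes of the annotation were not members. Of these, 5 had a score above 0, so that 17 of the 20 were highest at 12 h. CP24 10A CsaV3_1G019610 ranked 164th, with means of 155 FPKM at 0 h, 214 at 3 h, 403 at 12 h, then 175 at 24 h. LHCII type 1-like CsaV3_6G013800 ranked 215th, with 638, 2356, 4978 and 2841 FPKM at the same times. Of the 8, 2 were higher and 1 lower at 24 h, and 1 was higher at 3 h. The lower gene, CsaV3_4G037740 (-1.37), is described only as a hypothetical protein, as is CsaV3_4G037730. The rest of the photosynthetic apparatus gave no member. Of 69 other photosynthesis genes in the pathway annotation, 53 were eligible, and their median score was -0.11. A score above 0 was found in 25 of the 53, beside 16.5% of all eligible genes, so many were also highest at 12 h. Among the 63 of the 69 that were tested, 3 were higher and 6 lower at 24 h, and 2 were higher and 3 lower at 3 h.

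The 19 leaf mesophyll markers, antenna genes and 1 Rubisco small chain gene, summed to 66282 to 80447 FPKM at 12 h, against 28088 to 32579 at 0 h. Without the 12 members the other 7 summed to 23758 to 27823 FPKM at 0 h, 19849 to 22538 at 3 h, 38603 to 45191 at 12 h, then 28467 to 38026 at 24 h. These 7 are the Rubisco gene and 6 further antenna genes. The highest of the 6 at 0 h, antenna protein 8 (CsaV3_1G043710), had a mean of 1596 FPKM, so most of the sum at 0 h came from the Rubisco gene. The part of mesophyll RNA content in the antenna values was not tested.

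Of the 11 phenylpropanoid and flavonoid members, 10 were higher and none lower at 24 h, beside 13.2% and 18.1% of all tested genes. Their median log2 fold change was 1.62. At 3 h, 3 were higher and none lower, beside 9.89% and 5.39%, and the median was 0.05. In 8 of the 11 the level at 3 h was not called in either direction.

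CsaV3_6G043630 encodes CYP81E8, a cytochrome P450 of a family that hydroxylates isoflavones in legumes. It had 1.46, 2.04 and 1.30 FPKM at 0 h, 0.887, 5.13 and 0.760 at 3 h, 251, 181 and 339 at 12 h, then 65.0, 86.7 and 58.7 at 24 h. The groups at 0 h and 3 h overlapped, and the libraries of the 2 later times were far above them. Its change at 24 h was the largest of all members (log2 fold change 5.07 ± 0.49, adjusted p = 3.5e-06). The neighbouring CsaV3_6G043620, also CYP81E8-like, had 2.18, 0.943 and 2.48 FPKM at 0 h, 2.89, 1.52 and 1.76 at 3 h, 33.1, 36.5 and 44.2 at 12 h, then 7.71, 14.1 and 9.49 at 24 h, and was higher at 24 h (2.23). Another eligible CYP81E8-like gene close by, CsaV3_6G043650, had its highest mean at 24 h. It had 0.397 ± 0.204 FPKM at 0 h, 8.98 ± 10.2 at 3 h, 18.6 ± 9.91 at 12 h, then 30.5 ± 8.39 at 24 h (SD, n = 3 each). The spread at 3 h was larger than the mean.

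Malonyltransferases attach malonyl groups to glycosylated phenolics, including anthocyanins. Of 5 eligible genes, 3 were members, and these stand next to each other on chromosome 1. CsaV3_1G033860 had 4.39, 3.18 and 1.5997 FPKM at 0 h, 2.91, 3.004 and 1.896 at 3 h, 33.6, 27.5 and 24.6 at 12 h, then 5.46, 8.19 and 6.53 at 24 h. CsaV3_1G033850 had 7.94, 6.90 and 7.74 FPKM at 0 h, 4.94, 6.18 and 4.63 at 3 h, 58.7, 44.1 and 56.8 at 12 h, then 13.9, 18.7 and 14.9 at 24 h. Phenolic glucoside malonyltransferase 2-like (CsaV3_1G033870) had 1.71, 1.67 and 0.847 FPKM at 0 h, 1.14, 0.882 and 0.597 at 3 h, 67.6, 71.7 and 72.9 at 12 h, then 35.7, 40.4 and 34.1 at 24 h. All 3 had their lowest mean at 3 h. CsaV3_1G033870 kept 51.9% of its 12 h mean at 24 h, the most among these 11 genes, and was called higher there (log2 fold change 4.32 ± 0.18, adjusted p = 9.04e-10). Changes in the other 2 were near the threshold (1.02 and 1.09) and were under it without the second 24 h library (0.90 and 0.95). Without the second 0 h library CsaV3_1G033850 was at 0.96, and without the third CsaV3_1G033860 was at 0.75. The other 2 eligible malonyltransferases did not peak at 12 h: CsaV3_5G038510 was highest at 3 h, with means of 4.87 FPKM at 0 h, 104 at 3 h, 47.1 at 12 h, then 32.6 at 24 h.

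Enzymes of the common phenylpropanoid route were also present. 4-coumarate-CoA ligase 2 (CsaV3_2G036090), which activates hydroxycinnamic acids, had 6.08, 4.73 and 6.47 FPKM at 0 h, 17.1, 16.1 and 13.6 at 3 h, 66.3, 79.5 and 71.7 at 12 h, then 16.1, 34.6 and 21.1 at 24 h. It was called higher at 24 h (1.91) and at 3 h (1.37). Cytochrome P450 84A1 (CsaV3_6G046880), in Arabidopsis the ferulate 5-hydroxylase that leads to syringyl lignin, had 8.75, 9.30 and 8.85 FPKM at 0 h, 34.02, 33.1 and 30.8 at 3 h, 143, 149.9 and 154 at 12 h, then 47.3, 64.8 and 50.4 at 24 h. Its times did not overlap, and it was called higher at 24 h (2.52) and 3 h (1.81). Probable cinnamyl alcohol dehydrogenase 6 (CsaV3_3G046050), of the enzyme class that reduces lignin precursors, had 24.1 ± 1.41 FPKM at 0 h, 62.4 ± 7.48 at 3 h, 143 ± 12.8 at 12 h, then 56.7 ± 13.5 at 24 h (SD, n = 3 each). Of 8 eligible 4-coumarate-CoA ligase genes, only CsaV3_2G036090 had a score above 0.

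Anthocyanidin 3-O-glucosyltransferases add glucose to anthocyanidins. CsaV3_4G032430 of this class had 44.5, 49.2 and 47.0 FPKM at 0 h, 37.6, 48.3 and 39.6 at 3 h, 368, 323 and 432 at 12 h, then 135, 163 and 140.1 at 24 h, with 0 h and 3 h overlapping. A second, CsaV3_1G010100, was lower, at 0.954 ± 0.0728 FPKM at 0 h, 2.18 ± 0.317 at 3 h, 9.05 ± 0.727 at 12 h, then 3.34 ± 0.200 at 24 h. Both were called higher at 24 h (1.62 and 1.40). Vestitone reductase (CsaV3_3G008190), an isoflavonoid enzyme in alfalfa, had 18.1 ± 0.934 FPKM at 0 h, 15.7 ± 0.676 at 3 h, 44.8 ± 2.90 at 12 h, then 23.1 ± 2.42 at 24 h and was the 1 gene of the 11 that was not called at 24 h (log2 fold change 0.34 ± 0.08, adjusted p = 0.00251). By pathway annotation, 5 of 12 eligible isoflavonoid genes (41.7%) were members, but only 3 of 101 phenylpropanoid biosynthesis genes (2.97%). By description, the 77 eligible flavonoid, phenylpropanoid and lignin genes had a median score of -1.08, so most were not highest at 12 h. Of the 12 tested isoflavonoid genes that were not members, 5 were higher at 24 h and 6 at 3 h. Of 150 such phenylpropanoid biosynthesis genes, 39 were higher and 31 lower at 24 h.

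**Figure D3:**
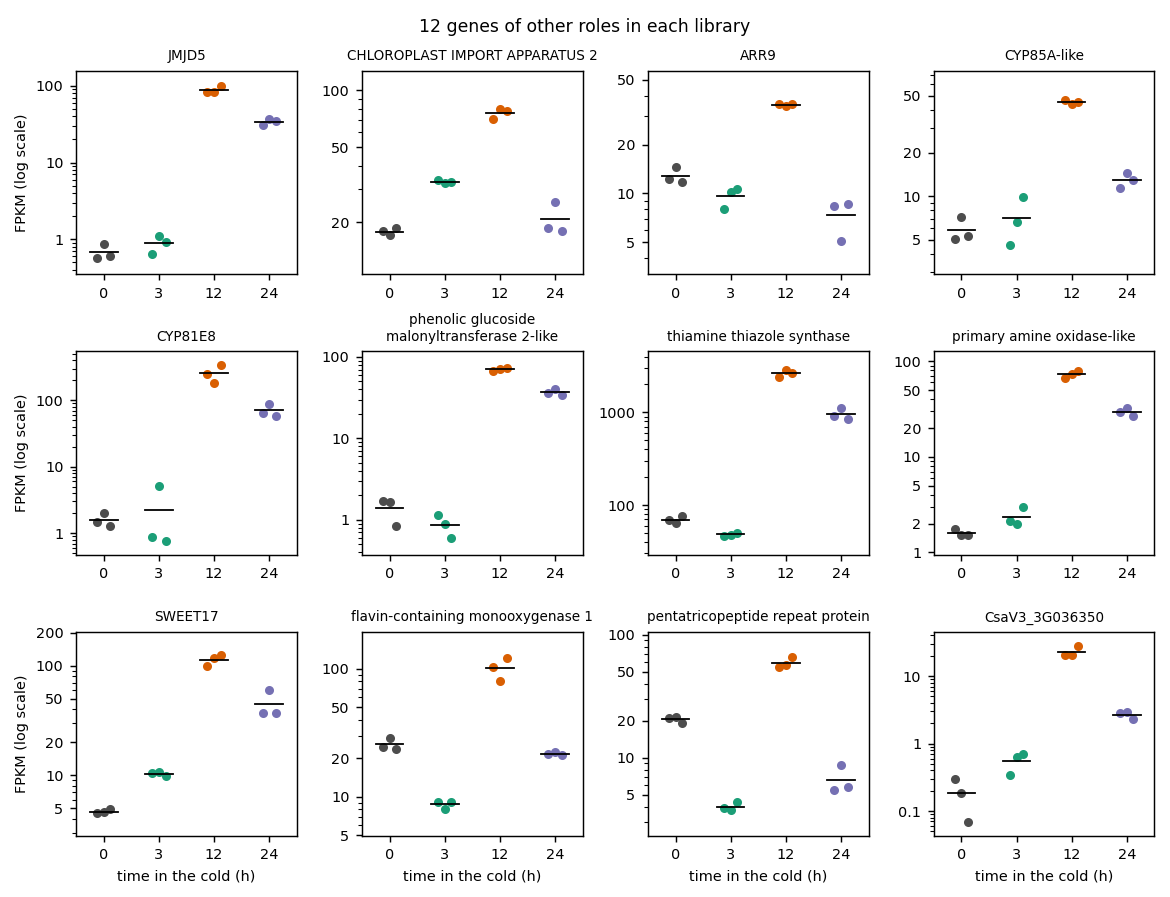
FPKM (log scale, a separate range in each panel) of 12 members of other roles in each of the 12 libraries against hours in the cold; dots are libraries and bars the means of 3. All 12 are highest at 12 h, while at 24 h JMJD5, CYP81E8 and the thiazole synthase stay above 0 h and the pentatricopeptide repeat gene lies below it.

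Among the 12 transcription and light regulators, 4 were higher and none lower at 24 h, beside 13.2% and 18.1% of all tested genes. None was called at 3 h in either direction, although with a pseudocount of 0.1 LOB domain-containing protein 4 and RADIALIS-like 1 CsaV3_7G000050 were called lower there (-1.04 and -2.53). JMJD5 (CsaV3_1G042600) encodes a putative lysine-specific demethylase, whose Arabidopsis counterpart is an evening gene of the circadian clock. It had 0.564, 0.857 and 0.597 FPKM at 0 h, 0.645, 1.09 and 0.926 at 3 h, 82.7, 84.5 and 98.9 at 12 h, then 30.9, 36.7 and 34.4 at 24 h. The 0 h and 3 h libraries overlapped, and the lowest 24 h library was far above both. At 24 h it was called higher (log2 fold change 4.88 ± 0.14, adjusted p = 2.74e-11). LOB domain-containing protein 4 (CsaV3_6G013670) had 0.342, 0.587 and 0.793 FPKM at 0 h, 0.259, 0.170 and 0.222 at 3 h, 20.8, 21.7 and 20.7 at 12 h, then 6.63, 6.28 and 6.67 at 24 h, and was higher at 24 h (2.73).

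RADIALIS proteins are small MYB-related factors known from floral asymmetry in snapdragon. RADIALIS-like 1 CsaV3_7G000050 was listed at 0 in all 3 h libraries and had 0.394, 0.349 and 0.774 FPKM at 0 h, 0, 0 and 0 at 3 h, 21.5, 16.5 and 17.9 at 12 h, then 2.21, 4.17 and 2.601 at 24 h. CsaV3_7G000010, with the same description, had 8.53, 8.86 and 8.56 FPKM at 0 h, 16.5, 13.95 and 13.4 at 3 h, 71.6, 81.6 and 75.2 at 12 h, then 24.98, 28.9 and 28.2 at 24 h. Both were called higher at 24 h (1.78 and 1.605). At 3 h CsaV3_7G000050 was near the threshold (-0.98) and passed it without the first 0 h library (-1.06) or the second (-1.09). The other eligible RADIALIS-like gene, CsaV3_3G045220, was highest at 3 h, with 15.7 FPKM there and 3.71 at 12 h.

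The other 8 regulators were not called at 24 h. CHLOROPLAST IMPORT APPARATUS 2 (CsaV3_2G008720), which in Arabidopsis promotes genes of chloroplast protein import, had 18.02, 17.1 and 18.6 FPKM at 0 h, 33.4, 32.2 and 32.8 at 3 h, 70.5, 79.5 and 77.9 at 12 h, then 18.7, 25.7 and 18.1 at 24 h. CONSTANS-LIKE 5 (CsaV3_2G008220) had 27.5 ± 2.74 FPKM at 0 h, 44.0 ± 2.42 at 3 h, 103 ± 9.69 at 12 h, then 34.8 ± 4.29 at 24 h. In both, 3 h came next after 12 h. Cyclic dof factor 3 (CsaV3_1G002390), of a family that represses CONSTANS in Arabidopsis, had 16.1, 17.02 and 15.5 FPKM at 0 h, 9.13, 9.06 and 10.2 at 3 h, 36.2, 39.3 and 43.0 at 12 h, then 17.1, 19.7 and 16.9 at 24 h. Its 3 h libraries were the lowest and those of 0 h and 24 h overlapped. None of the other 3 eligible cyclic dof factors had a score above 0. GATA factor 8 had 8.01 ± 0.458 FPKM at 0 h, 11.2 ± 0.679 at 3 h, 27.5 ± 4.11 at 12 h, then 11.99 ± 1.65 at 24 h, and LAF1-like, named for a MYB factor of phytochrome A signalling in Arabidopsis, had 2.95 ± 0.916 FPKM at 0 h, 1.59 ± 0.0874 at 3 h, 6.48 ± 1.09 at 12 h, then 2.59 ± 0.721 at 24 h (SD, n = 3 each).

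Hormone genes were the group with the least left at 24 h, with a median of 26.8% of the 12 h mean. Of the 14, 3 were higher and none lower at 24 h, beside 13.2% and 18.1% of all tested genes. At 3 h, 3 were higher and none lower, beside 9.89% and 5.39%. ARR9 genes encode type-A response regulators, which are induced by cytokinin and dampen its signal in Arabidopsis. CsaV3_5G024480 (ARR9-like) had 2.48, 5.04 and 2.90 FPKM at 0 h, 5.04, 7.36 and 4.83 at 3 h, 25.5, 22.95 and 21.4 at 12 h, then 3.64, 2.45 and 5.94 at 24 h. CsaV3_3G040330 (ARR9) had 12.3, 14.5 and 11.8 FPKM at 0 h, 8.08, 10.2 and 10.6 at 3 h, 35.6, 34.5 and 35.3 at 12 h, then 8.33, 5.12 and 8.58 at 24 h. The 24 h and 0 h libraries of CsaV3_5G024480 overlapped. Those of CsaV3_3G040330 were lower at 24 h, short of the fold threshold (log2 fold change -0.80 ± 0.16, adjusted p = 0.000826). ARR8 ranked 171st, just outside, with 11.8 FPKM at 12 h, then 2.06 at 24 h. Histidine kinase 4, a cytokinin receptor in Arabidopsis, had a member (CsaV3_UNG033160) with 5.16 ± 0.647 FPKM at 0 h, 4.72 ± 0.994 at 3 h, 11.9 ± 0.170 at 12 h, then 3.95 ± 0.547 at 24 h. Of 5 eligible genes of this receptor family, 2 had a score above 0, and the median score was -0.59.

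The members included brassinosteroid genes that encode the 22-hydroxylase CYP90B1 and a late oxidase of the CYP85A type. CYP90B1 (CsaV3_4G005090) had 3.65, 3.44 and 2.94 FPKM at 0 h, 4.53, 5.41 and 6.66 at 3 h, 10.96, 14.7 and 14.3 at 12 h, then 3.63, 5.12 and 4.20 at 24 h. CYP85A-like (CsaV3_5G038650) had 5.05, 7.17 and 5.29 FPKM at 0 h, 4.62, 6.59 and 9.89 at 3 h, 46.7, 43.5 and 44.9 at 12 h, then 11.5, 14.6 and 12.999 at 24 h, and was higher at 24 h (log2 fold change 1.10 ± 0.21, adjusted p = 0.000465). These were the 2 of 8 eligible brassinosteroid synthesis genes with a score above 0. Among the 13 tested genes of that pathway outside the members, 1 was higher and 6 lower at 24 h, and 1 was higher and 3 lower at 3 h.

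For abscisic acid, genes of its inactivation and a gene linked to its signalling were members. Abscisic acid 8'-hydroxylases start its breakdown. The 4-like gene CsaV3_7G008610 had 1.21, 2.097 and 1.82 FPKM at 0 h, 2.32, 1.97 and 1.89 at 3 h, 4.28, 5.29 and 8.03 at 12 h, then 1.14, 1.05 and 1.63 at 24 h. Hydroxylase 2 (CsaV3_1G034470) had 5.02 ± 0.778 FPKM at 0 h, 5.59 ± 1.07 at 3 h, 12.2 ± 0.806 at 12 h, then 5.20 ± 1.22 at 24 h. The 3 other eligible hydroxylases had their highest mean elsewhere: hydroxylase 1 was at 6.59, 26.4, 2.86 and 13.7 FPKM at 0, 3, 12 and 24 h. At the same times the 4-like gene CsaV3_2G026690 was at 1.36, 10.8, 3.72 and 1.94 FPKM. Hydroxylase 3 (CsaV3_7G025110) was at 0.693, 1.08, 9.69 and 10.3 FPKM, about as high at 12 h as at 24 h. AFP3-like (CsaV3_3G030080), of the family that binds the factor ABI5 in Arabidopsis, had 1.48, 1.52 and 0.911 FPKM at 0 h, 10.9, 12.5 and 11.6 at 3 h, 55.0, 45.9 and 48.5 at 12 h, then 7.96, 8.88 and 11.5 at 24 h. It was called higher at 3 h (log2 fold change 2.77 ± 0.15, adjusted p = 3.69e-08) and at 24 h (2.46). Probable protein phosphatase 2C 27 (CsaV3_2G003570) had 10.9 ± 1.13 FPKM at 0 h, 36.4 ± 2.84 at 3 h, 99.5 ± 9.86 at 12 h, then 51.3 ± 14.2 at 24 h and was also called at both times. It was counted with the hormone genes, although its description names no hormone.

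Gibberellin 2-beta-dioxygenase 8 (CsaV3_1G011060), an enzyme that inactivates gibberellins, had 7.70, 6.51 and 7.08 FPKM at 0 h, 4.05, 3.78 and 3.47 at 3 h, 22.7, 25.6 and 31.5 at 12 h, then 11.1, 16.1 and 11.2 at 24 h. Its 3 h libraries were the lowest, and the change at 24 h did not pass the fold threshold (log2 fold change 0.79 ± 0.15, adjusted p = 0.000393). HLS1 (CsaV3_1G036420), needed for the apical hook in Arabidopsis, had 12.7, 18.9 and 14.7 FPKM at 0 h, 8.004, 9.82 and 8.84 at 3 h, 58.5, 72.8 and 75.2 at 12 h, then 17.5, 19.6 and 13.6 at 24 h. Members of the auxin-induced SAUR family kept the least of their 12 h level among hormone genes: CsaV3_2G015400 had 1.37, 0.629 and 2.81 FPKM at 0 h, 7.79, 5.48 and 10.2 at 3 h, 13.9, 18.4 and 18.1 at 12 h, then 1.11, 1.71 and 0.835 at 24 h, and X10A-like CsaV3_2G015480 had 0.834 ± 0.580 FPKM at 0 h, 1.52 ± 0.467 at 3 h, 5.46 ± 0.711 at 12 h, then 0.293 ± 0.160 at 24 h. CsaV3_2G015400 was higher at 3 h (log2 fold change 2.08 ± 0.34, adjusted p = 0.000251) and not called at 24 h (-0.19). CsaV3_2G015480 was not called at 24 h (-0.65), but without the second 0 h library it was called lower (-1.09). The 12-oxophytodienoate reductase 11 gene, of a jasmonate-related enzyme class, had 4.75 ± 0.925 FPKM at 0 h, 4.84 ± 0.467 at 3 h, 13.04 ± 0.918 at 12 h, then 4.24 ± 0.662 at 24 h (SD, n = 3 each).

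Among the 10 transporter members, 4 were called higher at 24 h and 3 at 3 h, beside 13.2% and 9.89% of all tested genes. None was called lower. The group includes carriers of metals and sugars. Vacuolar iron transporter 1-like (CsaV3_5G027930) had 0.558, 0.214 and 0.492 FPKM at 0 h, 4.10, 3.23 and 3.20 at 3 h, 24.3, 30.9 and 35.1 at 12 h, then 3.502, 6.33 and 6.55 at 24 h. It had one of the 3 highest scores of all members (2.36), and was called higher at 24 h (2.67) and 3 h (2.14). Nramp3-like (CsaV3_2G035360), in Arabidopsis an exporter of iron and manganese from the vacuole, had 14.4 ± 0.939 FPKM at 0 h, 23.1 ± 0.447 at 3 h, 78.3 ± 5.79 at 12 h, then 33.4 ± 2.97 at 24 h. HMA2-like (CsaV3_1G031800), a zinc and cadmium pump, had 9.53 ± 0.409 FPKM at 0 h, 9.27 ± 0.892 at 3 h, 39.1 ± 5.76 at 12 h, then 11.05 ± 3.32 at 24 h.

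SWEET17 (CsaV3_3G014800), in Arabidopsis a fructose transporter of the vacuolar membrane, had 4.51, 4.59 and 4.90 FPKM at 0 h, 10.5, 10.7 and 9.86 at 3 h, 98.3, 117 and 126 at 12 h, then 36.99, 59.9 and 36.9 at 24 h. Its 4 times did not overlap, and it was called higher at 24 h (log2 fold change 3.09 ± 0.16, adjusted p = 4.64e-09) and 3 h (1.07). With quantile normalization its change at 3 h was 0.97, under the threshold. ALUMINUM SENSITIVE 3 (CsaV3_3G035240) was at 0.871, 0.943 and 0.971 FPKM at 0 h, 0.902, 0.901 and 0.928 at 3 h, 9.94, 9.75 and 9.61 at 12 h, then 2.03, 2.096 and 1.84 at 24 h. The 0 h and 3 h libraries were all under 1 FPKM. Boron transporter 4 had 53.4 ± 3.95 FPKM at 0 h, 60.1 ± 3.45 at 3 h, 138 ± 15.7 at 12 h, then 68.5 ± 9.02 at 24 h, and ZINC INDUCED FACILITATOR-LIKE 1 had 76.9 ± 5.79 FPKM at 0 h, 40.5 ± 0.377 at 3 h, 182 ± 39.7 at 12 h, then 92.0 ± 3.68 at 24 h. A pair of WAT1-related genes and NRT1/PTR FAMILY 4.4 completed the group, at 5.04 to 7.69 FPKM at 12 h.

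Raffinose family sugars are made from galactinol and accumulate in many chilled plants. Galactinol synthase 1-like CsaV3_5G031520 had 0.185, 0.155 and 0.0760 FPKM at 0 h, 3.56, 3.29 and 2.97 at 3 h, 8.98, 9.02 and 13.7 at 12 h, then 1.39, 5.16 and 2.29 at 24 h, and was called higher at 3 h (2.56) and 24 h (2.28). The other galactinol synthases in the table were not highest at 12 h: CsaV3_3G031720 had means of 6.92, 78.9, 14.01 and 9.64 FPKM at 0, 3, 12 and 24 h. The probable galactinol-sucrose galactosyltransferase 1 gene (CsaV3_4G033560) had 14.2, 12.7 and 13.4 FPKM at 0 h, 6.04, 5.54 and 7.02 at 3 h, 22.5, 26.8 and 29.2 at 12 h, then 9.20, 11.9 and 8.51 at 24 h. It fell at 3 h (log2 fold change -1.06 ± 0.13, adjusted p = 2.55e-05), although without the second 3 h library the log2 fold change was -0.99, inside the threshold. Of 5 eligible genes of this class, it was the only 1 with a score above 0. The most abundant, CsaV3_4G011820, had means of 1692, 541, 664 and 381 FPKM at 0, 3, 12 and 24 h. Of the 4 tested genes of the class outside the members, 3 were lower and none higher at 24 h.

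Among the 24 other enzymes, 11 were higher and none lower at 24 h, beside 13.2% and 18.1% of all tested genes. At 3 h, 7 were higher and 1 lower, beside 9.89% and 5.39%. Thiamine thiazole synthase (CsaV3_3G005340), which makes the thiazole part of vitamin B1 and is consumed in the reaction, was among the most abundant members. It had 68.5, 63.8 and 75.4 FPKM at 0 h, 46.6, 47.6 and 50.4 at 3 h, 2432, 2835 and 2652 at 12 h, then 908, 1114 and 853 at 24 h. Its 3 h libraries were all below those of 0 h, and it was called higher at 24 h (log2 fold change 3.78 ± 0.10, adjusted p = 1.94e-11). Of 18 eligible thiamine synthesis genes it was the only member, and 3 had a score above 0.

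Copper amine oxidases oxidize polyamines and release hydrogen peroxide. CsaV3_5G003800 (primary amine oxidase-like) had 1.76, 1.51 and 1.54 FPKM at 0 h, 2.11, 2.004 and 2.99 at 3 h, 67.3, 73.8 and 79.1 at 12 h, then 29.5, 32.5 and 27.03 at 24 h, and was higher at 24 h (3.84). Its neighbour CsaV3_5G003790 had 6.81, 7.97 and 7.003 FPKM at 0 h, 4.34, 4.27 and 4.49 at 3 h, 33.6, 39.2 and 40.3 at 12 h, then 10.2, 13.5 and 11.8 at 24 h, and was not called. Copper amine oxidase 1 (CsaV3_1G001170) had 3.55 ± 0.122 FPKM at 0 h, 14.1 ± 1.02 at 3 h, 36.9 ± 4.19 at 12 h, then 18.7 ± 3.13 at 24 h and was called at both 24 h (2.23) and 3 h (1.85). These were 3 of 5 eligible amine oxidases, and the other 2 had scores under 0. Probable polyamine oxidase 5, of another enzyme class acting on polyamines, had 1.03 ± 0.412 FPKM at 0 h, 4.50 ± 1.15 at 3 h, 9.27 ± 1.88 at 12 h, then 2.28 ± 0.540 at 24 h.

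SufE-like protein 2 (CsaV3_2G025000), an activator of sulfur transfer for iron-sulfur clusters in chloroplasts, had 0.312, 0.409 and 0.463 FPKM at 0 h, 0.696, 0.917 and 0.394 at 3 h, 72.3, 29.3 and 59.7 at 12 h, then 28.5, 19.1 and 24.8 at 24 h. Its 12 h libraries spread widely (coefficient of variation 41.1%), and it was called higher at 24 h (4.77). Cytochrome P450s were numerous: 89A2-like had 4.51 ± 0.4999 FPKM at 0 h, 17.4 ± 1.04 at 3 h, 87.8 ± 2.77 at 12 h, then 22.1 ± 4.83 at 24 h, CYP736A12-like had 0.193 ± 0.114 FPKM at 0 h, 0.719 ± 0.336 at 3 h, 19.1 ± 0.660 at 12 h, then 5.81 ± 1.48 at 24 h, and CYP72A219-like had 4.46 ± 0.521 FPKM at 0 h, 7.77 ± 0.741 at 3 h, 66.9 ± 11.3 at 12 h, then 28.5 ± 0.976 at 24 h. Each was called higher at 24 h. The 7-deoxyloganetin glucosyltransferase-like gene CsaV3_7G006260 had 28.3, 33.95 and 28.4 FPKM at 0 h, 72.9, 76.1 and 83.1 at 3 h, 605, 658 and 819 at 12 h, then 225, 264 and 193 at 24 h. It was called at 24 h (2.89) and 3 h (1.35).

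Flavin-containing monooxygenase 1 (CsaV3_1G028400), of a protein family that makes the defence signal N-hydroxypipecolic acid in Arabidopsis, had 24.3, 28.96 and 23.6 FPKM at 0 h, 9.12, 7.97 and 9.10 at 3 h, 103, 80.7 and 120.4 at 12 h, then 21.4, 22.6 and 21.3 at 24 h. It fell at 3 h (log2 fold change -1.498 ± 0.13, adjusted p = 1.07e-06), and at 24 h it was not called (-0.23). The carotenoid cleavage dioxygenase 4 gene (CsaV3_4G007180) had 42.1 ± 1.38 FPKM at 0 h, 35.04 ± 2.17 at 3 h, 109 ± 3.34 at 12 h, then 42.5 ± 2.75 at 24 h, and the chloroplast thioredoxin-like CDSP32 had 66.1 ± 2.13 FPKM at 0 h, 132 ± 4.56 at 3 h, 277 ± 11.1 at 12 h, then 119.7 ± 25.9 at 24 h (SD, n = 3 each). Neither passed the fold threshold at 24 h or 3 h, but CDSP32 (CsaV3_2G024440) was close to it at 3 h (0.99) and passed it without the first or the third 0 h library or the first 3 h library (1.005 to 1.02), while at 24 h it passed with median-ratio rescaling (1.04). An NADPH-dependent pterin aldehyde reductase-like gene, CsaV3_UNG162230, was listed at 0 in all libraries of 0 h and 24 h, with 1.46, 0.365 and 1.03 FPKM at 3 h and 7.80, 3.28 and 6.32 at 12 h. A second one, CsaV3_5G014070, had 0.933 ± 0.170 FPKM at 0 h, 5.07 ± 0.483 at 3 h, 28.7 ± 0.804 at 12 h, then 12.7 ± 2.79 at 24 h.

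Of the 14 cell wall and cell surface members, 6 were higher and 1 lower at 24 h, beside 13.2% and 18.1% of all tested genes. At 3 h, 4 were higher and 1 lower, beside 9.89% and 5.39%. An extensin-like protein (CsaV3_1G026750), a structural wall glycoprotein, was the most abundant, with 579, 477 and 601 FPKM at 0 h, 992, 877 and 885 at 3 h, 2083, 2536 and 2308 at 12 h, then 918, 1667 and 935 at 24 h. It was called higher at 24 h (1.04). Its second 24 h library was well above the other 24 h libraries. Without it the log2 fold change was 0.75, and without the second 0 h library 0.93, both under the threshold. Polygalacturonase inhibitor 1 (CsaV3_7G008270), of a class that blocks fungal pectin-degrading enzymes, had 1.92, 1.42 and 1.20 FPKM at 0 h, 3.90, 3.88 and 3.19 at 3 h, 20.7, 22.5 and 22.4 at 12 h, then 5.01, 5.69 and 4.88 at 24 h. Probable pectinesterase/pectinesterase inhibitor 7 (CsaV3_7G029590) was under 0.4 FPKM at 0 h and 3 h, with 0.307 ± 0.0488 FPKM at 0 h, 0.239 ± 0.0650 at 3 h, 6.37 ± 0.655 at 12 h, then 1.37 ± 0.114 at 24 h. Fasciclin-like arabinogalactan protein 2 (CsaV3_7G002480) had 14.8 ± 2 FPKM at 0 h, 15.5 ± 0.776 at 3 h, 70.8 ± 7.78 at 12 h, then 19.9 ± 6.04 at 24 h.

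The 21 kDa proteins CsaV3_3G016210 and CsaV3_3G016230 differed in level but both were called higher at 24 h (1.40 and 1.97) and 3 h (1.54 and 1.88). The second of them had 34.4, 43.3 and 38.6 FPKM at 0 h, 132, 147 and 152.99 at 3 h, 323, 319 and 306 at 12 h, then 157, 156 and 146 at 24 h. Endoglucanase 6-like (CsaV3_4G006540), a cellulose-cleaving enzyme class, fell at 3 h (log2 fold change -1.22 ± 0.20, adjusted p = 0.000278), with 67.2, 67.8 and 54.1 FPKM at 0 h, 26.01, 27.8 and 25.9 at 3 h, 129, 153.3 and 112 at 12 h, then 32.9, 51.7 and 25.7 at 24 h. The 3 h and 24 h libraries were both below those of 0 h, with 24 h not called (-0.82). Without the second 24 h library it was called lower at 24 h (-1.095). A putative invertase inhibitor (CsaV3_6G006700) had 4.23, 4.97 and 4.29 FPKM at 0 h, 3.38, 3.91 and 4.20 at 3 h, 9.58, 11.1 and 8.03 at 12 h, then 1.54, 1.08 and 1.40 at 24 h, and fell at 24 h (log2 fold change -1.45 ± 0.14, adjusted p = 1.39e-06).

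In RNA and protein handling, 5 of 13 were higher and 1 lower at 24 h, beside 13.2% and 18.1% of all tested genes. At 3 h, 2 were higher and 2 lower, beside 9.89% and 5.39%. A cyclophilin of the CYP19-3 type (CsaV3_1G045550), a protein-folding isomerase, had 5.31, 6.10 and 5.79 FPKM at 0 h, 11.1, 11.4 and 11.6 at 3 h, 49.97, 50.1 and 51.6 at 12 h, then 13.1, 16.3 and 15.1 at 24 h. Its 24 h libraries were above those of 0 h, and it was called (log2 fold change 1.30 ± 0.08, adjusted p = 2.67e-08). A Sec61 alpha subunit gene (CsaV3_4G032990), for the protein channel of the endoplasmic reticulum, had 0, 0.104 and 0.0766 FPKM at 0 h, 1.29, 1.43 and 1.31 at 3 h, 13.5, 14.8 and 19.7 at 12 h, then 3.79, 7.06 and 4.999 at 24 h. RNF115-like (CsaV3_2G001940), an E3 ubiquitin ligase, had 1.24, 2.32 and 0.658 FPKM at 0 h, 0, 0.323 and 0.145 at 3 h, 20.9, 22.97 and 18.7 at 12 h, then 8.43, 10.2 and 8.12 at 24 h. It was the only member called in opposite directions, lower at 3 h (log2 fold change -1.47 ± 0.27, adjusted p = 0.000629) and higher at 24 h (2.39).

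Pentatricopeptide repeat proteins process organelle RNA. The gene described as At4g28010-like (CsaV3_1G043500) had 21.002, 21.2 and 19.2 FPKM at 0 h, 3.92, 3.72 and 4.36 at 3 h, 54.3, 56.4 and 65.3 at 12 h, then 5.47, 8.70 and 5.72 at 24 h. It was the only member to fall at both 3 h (log2 fold change -2.22 ± 0.14, adjusted p = 1.15e-07) and 24 h (log2 fold change -1.58 ± 0.14, adjusted p = 6.78e-07). The At5g02860-like gene (CsaV3_7G007980) rose at both (1.36 and 2.30), with 1.12 ± 0.202 FPKM at 0 h, 3.65 ± 0.305 at 3 h, 16.95 ± 1.29 at 12 h, then 7.46 ± 0.735 at 24 h. Ribosome assembly factors were represented by a U3 snoRNA-associated protein 15 homolog (2.22 ± 0.315 FPKM at 0 h, 4.76 ± 0.104 at 3 h, 13.99 ± 1.69 at 12 h, then 3.21 ± 0.186 at 24 h) and pno1 (7.83 ± 0.706 FPKM at 0 h, 15.7 ± 0.265 at 3 h, 39.6 ± 1.55 at 12 h, then 16.3 ± 1.73 at 24 h, SD, n = 3 each).

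Among the 9 other described proteins, wound-induced protein 1 (CsaV3_4G026930) had 31.05, 24.1 and 20.8 FPKM at 0 h, 9.03, 14.4 and 15.4 at 3 h, 76.0, 84.3 and 61.8 at 12 h, then 6.85, 10.8 and 4.56 at 24 h, and fell at 24 h (log2 fold change -1.77 ± 0.28, adjusted p = 0.000118). LURP-one-related 17 (CsaV3_4G006150) had 0.360, 0.144 and 0.208 FPKM at 0 h, 2.23, 2.59 and 2.58 at 3 h, 22.5, 15.4 and 22.3 at 12 h, then 6.31, 7.25 and 6.46 at 24 h, and rose at both 24 h (3.29) and 3 h (2.02). A putative lipid-binding protein (CsaV3_6G009190) fell at 3 h (log2 fold change -1.22 ± 0.21, adjusted p = 0.00037). Its means were 25.1 ± 4.76 FPKM at 0 h, 10.4 ± 0.415 at 3 h, 62.4 ± 10.2 at 12 h, then 18.6 ± 6.71 at 24 h.

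The 29 genes without a described function included the highest score of all. CsaV3_3G036350 had 0.299, 0.188 and 0.0693 FPKM at 0 h, 0.347, 0.622 and 0.689 at 3 h, 20.3, 20.7 and 27.8 at 12 h, then 2.86, 2.89 and 2.32 at 24 h. Its 12 h mean was 8.53 times the next highest, and it was called higher at 24 h (2.23). CsaV3_6G046540 was listed at 0 in all 0 h libraries and had 0.0620, 0.256 and 0.235 FPKM at 3 h, 9.57, 12.1 and 10.1 at 12 h, then 1.71, 3.17 and 2.99 at 24 h. CsaV3_3G008050 showed the largest change at 3 h of any member (log2 fold change 2.92 ± 0.22, adjusted p = 4.86e-07), with 0.311 ± 0.0434 FPKM at 0 h, 5.65 ± 0.714 at 3 h, 13.98 ± 2.31 at 12 h, then 3.39 ± 1.599 at 24 h. In this group 11 genes were higher and 1 lower at 24 h, beside 13.2% and 18.1% of all tested genes. At 3 h, 7 were higher, beside 9.89%.

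Over all 150 members, 65 (43.3%) were higher and 4 (2.67%) lower at 24 h than at 0 h, beside 13.2% and 18.1% of all tested genes. Without the second 24 h library the counts were 60 and 5. Members had a median log2 fold change of 0.66 there, and all tested genes -0.17. At 3 h, 39 (26%) were higher and 6 (4.0%) lower, beside 9.89% and 5.39% of all tested genes, with medians of 0.30 and 0.03. Both comparisons share the 0 h libraries. The members higher at both times numbered 33, those higher at 24 h only 31, and those higher at 3 h only 6. The 3 that were lower at 24 h only were wound-induced protein 1, the invertase inhibitor and CsaV3_6G022140, which has no description. Wound-induced protein 1 (CsaV3_4G026930) was near the threshold at 3 h as well (-0.96), and passed it without the third 0 h library or the second or the third 3 h library (-1.05 to -1.09). The 4 that were lower at 3 h only were flavin-containing monooxygenase 1, endoglucanase 6-like, the lipid-binding protein and the galactinol-sucrose galactosyltransferase. At neither time were 71 called.

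**Figure D4:**
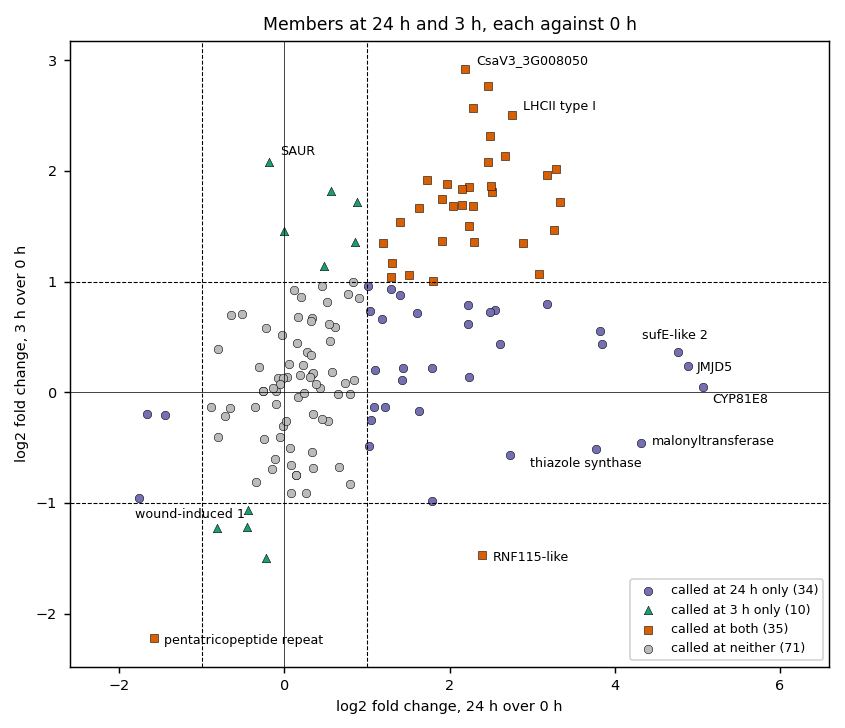
log2 fold change of the 150 members at 24 h over 0 h (x axis) and at 3 h over 0 h (y axis) from limma; symbols give the calls and dashed lines the fold threshold of 1. Of the members, 35 were called at both times, 34 at 24 h only, 10 at 3 h only and 71 at neither, and both axes share the 0 h libraries.

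The part of the 12 h level left at 24 h ranged from 0% to 52.2%, with a median of 33.6%. It was under 25% in 37 members and over 40% in 47. The upper limit follows from the rule. By role the median was 38.3% for antenna genes, 37.1% for regulators, 36.4% for phenylpropanoid genes, 33.2% for transporters, 28.03% for cell wall genes and 26.8% for hormone genes. The ranges of the roles overlapped widely.

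**Figure D5:**
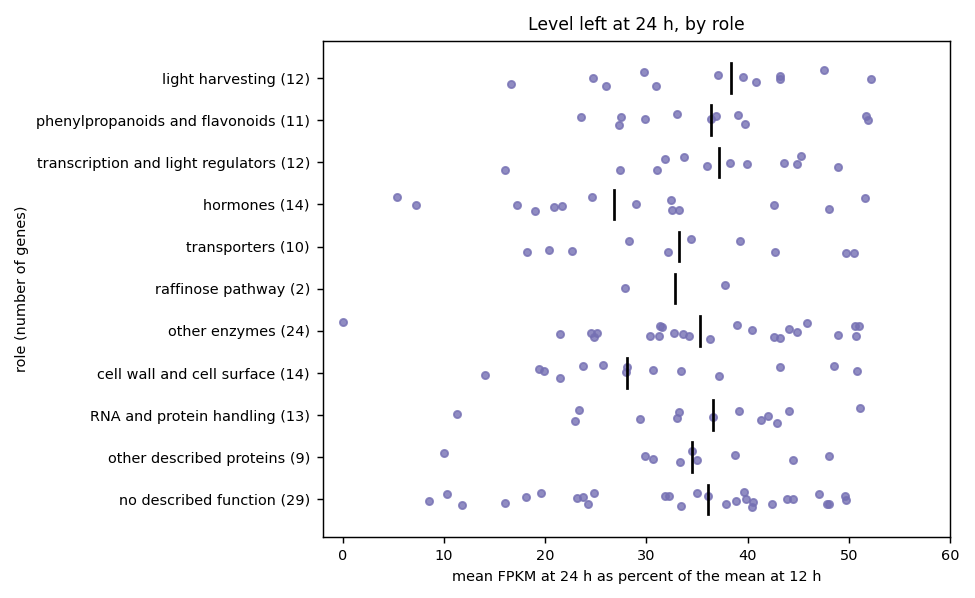
Mean FPKM at 24 h as percent of the mean at 12 h (x axis) for each member, by role (rows, with the number of genes); dots are genes and black bars the medians. Medians run from 26.8% for hormone genes to 38.3% for antenna genes, and the spread within a role is wider than the differences between roles.

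Some members stood next to each other in the gene numbers, which follow their order along a chromosome. With a step of at most 30 in the number, 30 of the members fell into 14 runs. Runs of related genes were the 3 malonyltransferases on chromosome 1, the CYP81E8 pair and the LHCII type I pair on chromosome 6, the amine oxidase pair on chromosome 5, the 21 kDa protein pair on chromosome 3, and the 7-deoxyloganetin glucosyltransferase pair and the RADIALIS-like genes, with an undescribed member between them, on chromosome 7. Similar neighbours can share reads, and no source used here says how reads that map to several genes were assigned. Unrelated neighbours included cyclic dof factor 3 with antenna protein P4, and scarecrow-like protein 4 with CYP90B1. Genes inside a run did not always share the pattern: CsaV3_3G005930, a cyclic nucleotide-gated channel 4 gene between 2 members, was highest at 0 h, at 221 FPKM, with 74.2 at 12 h. Chromosome 1 held 31 members (20.7%, and 14.3% of eligible genes), chromosome 3 held 28 (18.7% and 20.5%), the others 13 to 23 each, and 2 members had no chromosome in their number.

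Replicates at 12 h were close for most members. The median coefficient of variation was 11.8%, and 8.76% over all eligible genes. The widest spread was that of dnaJ 11 (52.6%), followed by sufE-like protein 2 (41.1%). CYP81E8 (CsaV3_6G043630) had 30.7%.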

How the data were processed

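Leaf RNA was sequenced in 12 libraries, 3 per time. The labels name the time and replicate of each library, and the study describes biological replicates, so p-values measure the spread between these samples. Reads were trimmed (cutadapt 1.9 and FastQC in the submitters' processing notes) and mapped by the authors (HISAT2, cucumber Chinese Long genome V3). The authors deposited FPKM, per the file headers. No source used here names the program that computed it. The table with all 4 times was used. Tables of a pair of times repeat FPKM beside the authors' fold changes and p-values, and were not used. The fixed value of 0.0001 that stands for an absent signal was set to 0. Without read counts, no counting intervals were computed.

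Genes were scored as described above, with a pseudocount of 0.5 FPKM. The members and lists were chosen with earlier results of these data known, and roles were assigned after the values were seen. Genes with 0.5 FPKM or more in 3 or more libraries, 17497 in all, were fitted on log2(FPKM + 0.5) with lmFit and eBayes (trend, robust) of limma 3.58.1 in R 4.3.3, with all 12 libraries in 1 fit. Fold changes on this scale understate changes of low genes. With 3 libraries per time an exact permutation test reaches no p under 0.1, and none was run. The limma calls were tested on simulated data, with changes beyond the fold threshold planted in well expressed genes. The scoring and the selection of members were not tested in this way. Python 3.11.15, pandas 2.3.3, numpy 2.4.6 and matplotlib 3.10.9 were used.

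Genes named by rule were the 12 highest scores, the 3 highest scores and the most abundant member of each function group, the genes at both sides of the selection limit, the 5 largest and smallest called changes per comparison, neighbours, and the widest replicate spreads. Others were named for their role after their values were seen. Alternatives were pseudocounts of 0.1 and 1, other minimum levels and filters, medians instead of means, median-ratio and quantile rescaling, fits of only the 6 libraries compared, a block for the replicate number, unadjusted p, and leaving out each library. No gene ID matched the RefSeq table given, so sequences and promoter motifs were not used here, and chromosomes are those in the gene numbers.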

Additional observations from a re-analysis of the deposited data

How the results depend on the processing

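Selection of the 150 members depended moderately on the settings. Other pseudocounts kept 143 (0.1) and 145 (1) of them, a minimum mean of 2 or 10 FPKM kept 128 and 125, median-ratio and quantile rescaling kept 131 and 130, and medians kept 137. Leaving out 1 library at a time kept 136 to 149, and 113 members, 10 antenna genes among them, stayed in without any single library. The count of members whose 12 h libraries lay above the other 9 was 150 with median-ratio rescaling and 149 with quantile normalization. At 24 h against 0 h, 60 to 70 members were higher and 4 or 5 lower over the settings, and leaving out 1 library gave 60 to 66 higher and 4 to 5 lower. At 3 h against 0 h, 35 to 44 were higher and 6 to 9 lower, with 38 to 41 and 6 to 7 when 1 library was left out. Samples with the same replicate number did not deviate together (18 pairs, correlation -0.16 to 0.16, median -0.02), so the number was not taken as a pairing. A fit with the replicate number as a block gave the same counts, 65 higher and 4 lower at 24 h and 39 higher and 6 lower at 3 h. Over all members, both comparisons and 21 alternatives, 6218 of 6290 recomputed fold changes kept their call. That count includes fits without a library of a time outside the comparison. Such fits leave the fold change as it was, and no call changed in them. The count is therefore not a measure of how stable the calls near the threshold were. Calls were lost in 31 (13 genes) and gained in 41 (21 genes), and no called change turned round. The 13 were the extensin-like gene, the 2 malonyltransferases near the threshold, pno1, SWEET17, the galactosyltransferase, antenna protein 7, polygalacturonase inhibitor 1, IRX15-LIKE-like, pectinesterase inhibitor 7, a pterin aldehyde reductase-like gene and 2 undescribed genes. The promoter comparison planned for the members was not run. The absence of read counts limits what can be said of genes near 0 FPKM.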
